A study of Homo sapiens with 12 samples.

Results

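The 10 genes described here encode the ligands, receptors and inhibitors of Nodal signalling and their shared transcription factor, and they were taken by name from a table of 26641 genes. They were the ligand genes NODAL, GDF3 and INHBA, the co-receptor gene TDGF1, the receptor genes ACVR1B and ACVR2B, the inhibitor genes LEFTY1, LEFTY2 and CER1, and FOXH1, which encodes a transcription factor. Poly(A) RNA was sequenced from 6 transgenic lines of NCCIT, a human embryonal carcinoma cell line that resembles pluripotent cells of the early embryo. Each line expressed catalytically dead Streptococcus pyogenes Cas9 (dCas9), fused to the activator VPR (CRISPRa) or to the repressor KRAB (CRISPRi), after 4 days of doxycycline. Each line also carried 1 of 3 CARGO arrays, which express many guide RNAs from a single construct. The LTR5HS Sp array brings the fusion to LTR5HS, the youngest long terminal repeats of the endogenous retrovirus HERVK, and was the recruitment condition. The LTR5HS Sa array carries guides to LTR5HS on a Staphylococcus aureus scaffold that this dCas9 does not use, and the nontarget Sp array carries guides with no intended site in the genome. The LTR5HS Sa and nontarget Sp lines were the control condition. For each fusion there were therefore 2 recruitment and 4 control libraries, 2 per line, and the 2 libraries of a line were independent biological replicates. Every combination of array and fusion was a single line, so an effect of the array and a difference between lines cannot be told apart. The 3 lines of a fusion were all made from 1 progenitor line carrying that fusion.

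Nodal, GDF3 and activin, a dimer of the INHBA product, are secreted ligands of the TGF-beta family. Nodal and GDF3 signal through type I receptors such as ACVR1B and type II receptors such as ACVR2B with the help of the membrane-bound co-receptor TDGF1 (Cripto), whereas activin needs no such co-receptor. The receptors phosphorylate SMAD2 and SMAD3, which enter the nucleus with SMAD4 and act with FOXH1 on target genes. NODAL, LEFTY1 and LEFTY2 are themselves targets, and the LEFTY proteins and Cerberus (CER1) are secreted and block the ligand, which makes a feedback loop. In human pluripotent cells this pathway is known to help maintain the undifferentiated state, and TDGF1, GDF3 and LEFTY1 are widely used as markers of that state.

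The 12 guides of the LTR5HS arrays were located in the genome to place the 10 genes relative to the recruited fusion. The guides were all 16 bases long and had 3335 exact matches on 24 chromosomes of GRCh38, of which 2938 (88.1%) were followed by the NGG motif that this Cas9 needs (its PAM). Clusters with matches of at least 2 different guides, no more than 1000 bp apart, gave 648 candidate elements. These are positions by sequence, and binding was not analysed here. The paper predicts exact guide matches also in the related LTR5A and LTR5B repeats, and it found dCas9 bound at some of them. A candidate element need therefore not be an LTR5HS. Of the 10 genes, 0 had their start within 200 kb of a candidate element and 3 had it within 500 kb. Of the 23287 genes with a position, 11.83% and 24.22% lay that close, so for 10 genes these counts are near the background. ACVR2B was nearest, with an element 318 kb upstream of its start, followed by FOXH1 (320 kb upstream), ACVR1B (497 kb upstream), TDGF1 (682 kb downstream) and GDF3 (766 kb upstream). The other 5 genes lay further away, up to 3472 kb for INHBA.

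LEFTY2 (chromosome 1, 225936598 to 225941383, minus strand) and LEFTY1 (chromosome 1, 225886282 to 225911382, minus strand) are neighbouring genes with 4 exons each in GENCODE 44. Their nearest element was the same one, at chr1:224340159-224340644, at a distance of 1601 kb from the start of LEFTY2 and 1549 kb from that of LEFTY1. Its 6 guide matches are shown in order because it was the candidate element nearest to the pair of genes whose counts fell. Matches of a single guide and inexact matches were left out, so nearer sites are possible. The 16 bases of each guide are in lower case, 5′ to 3′, and the 3 bases of the PAM that follow in the genome are in capitals.
LTR5HS-7: aaccttggacaataccTGG
LTR5HS-4: agcccgacacccgtaaAGG
LTR5HS-8: taaagggtctgtgctgAGG
LTR5HS-9: gacattccattgcccaGGG
LTR5HS-3: aaaactgccttagggcTGG
LTR5HS-1: tactaagggaactcagAGG
LTR5HS-7 and LTR5HS-9 match the minus strand there, and the other 4 match the plus strand.

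The deposited values were read counts per gene. The libraries held between 13601701 and 69797411 counts (median 18256928), and 3 counts, taken as the lowest reliable count, equalled between 0.0462 and 0.233 CPM (counts scaled to the size of the library). Replicate 2 of the dCas9-KRAB nontarget Sp line was the deepest, at 3.84 times the median total of the remaining libraries. CPM were calculated with library sizes normalised over the 12 libraries, and levels were compared between genes only as CPM per kb of gene length. Changes were tested by quasi-likelihood in edgeR, with p-values adjusted by Benjamini-Hochberg over all tested genes, and a gene passed at an adjusted p under 0.05. PCAT14, a noncoding RNA gene that begins within an LTR5HS element and served as the check of targeting, rose by 6.40 on the log2 scale with CRISPRa (adjusted p = 1.85e-05). With CRISPRi it fell by 5.85. All 10 embryonal carcinoma markers listed (POU5F1, SOX2, LIN28A, LIN28B, SALL4, DPPA4, L1TD1, PODXL, DNMT3B and TNFRSF8) had a mean of at least 1 CPM in every condition. Their summed level was, however, lower in the dCas9-VPR lines (1384 to 2215 CPM) than in the dCas9-KRAB lines (5639 to 6998 CPM).

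**Figure D1:**
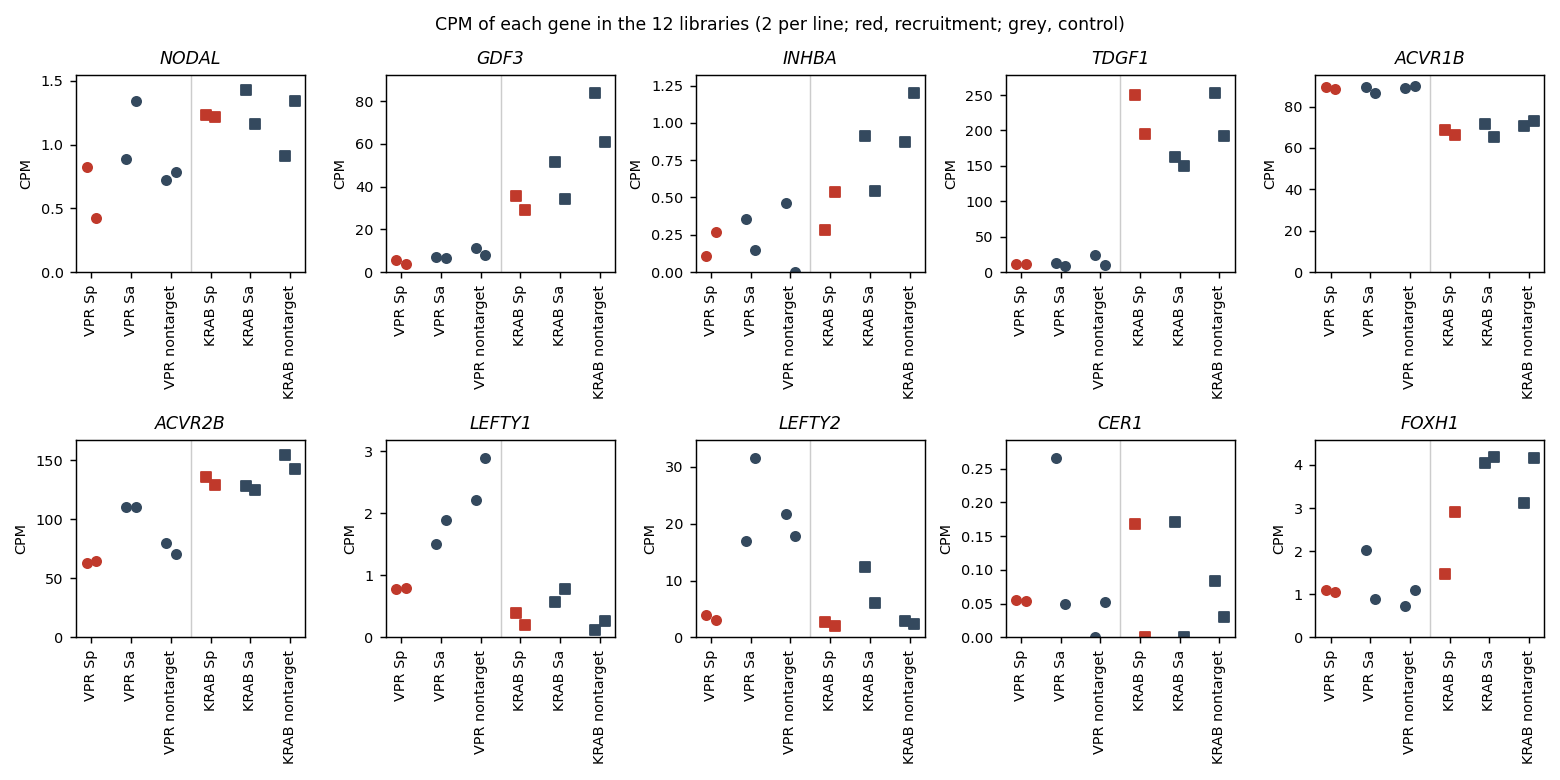
CPM (vertical axis, from 0, scaled per gene) of the 10 Nodal pathway genes in each of the 12 libraries, with 2 points per line for the 2 replicates. Circles are dCas9-VPR and squares dCas9-KRAB libraries, red marks recruitment (LTR5HS Sp) and grey marks control (LTR5HS Sa and nontarget). LEFTY1 and LEFTY2 were lower in both red circles than in all 4 grey circles, and TDGF1 and GDF3 were much higher in the squares than in the circles.

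In the control lines, the genes covered a wide range of levels and their order differed between the fusions. With dCas9-KRAB, TDGF1 had the highest level per length (86.3 ± 21.2 CPM per kb, mean ± SD, n = 4), followed by GDF3 (47.1 ± 16.9), ACVR1B (14.6 ± 0.681) and ACVR2B (12.1 ± 1.21). LEFTY2 (2.70 ± 2.12 CPM per kb), FOXH1 (1.78 ± 0.235), NODAL (0.580 ± 0.108), INHBA (0.406 ± 0.124), LEFTY1 (0.266 ± 0.181) and CER1 (0.0591 ± 0.0622) followed. Neighbours in this order whose libraries overlapped were TDGF1 and GDF3, LEFTY2 and FOXH1, and the last 4 genes each with the next.

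With dCas9-VPR, the receptor gene ACVR1B came first (18.4 ± 0.303 CPM per kb, n = 4), ahead of LEFTY2 (10.1 ± 3.06), ACVR2B (8.15 ± 1.83), GDF3 (6.78 ± 1.78) and TDGF1 (6.33 ± 3.15). Each of these last 4 overlapped its neighbour. LEFTY1 (1.31 ± 0.361 CPM per kb), FOXH1 (0.545 ± 0.269), NODAL (0.448 ± 0.134), INHBA (0.111 ± 0.0952) and CER1 (0.0763 ± 0.0981) formed the low end, with overlap between LEFTY1 and FOXH1, FOXH1 and NODAL, and INHBA and CER1. NODAL itself was thus among the low genes with either fusion.

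**Figure D2:**
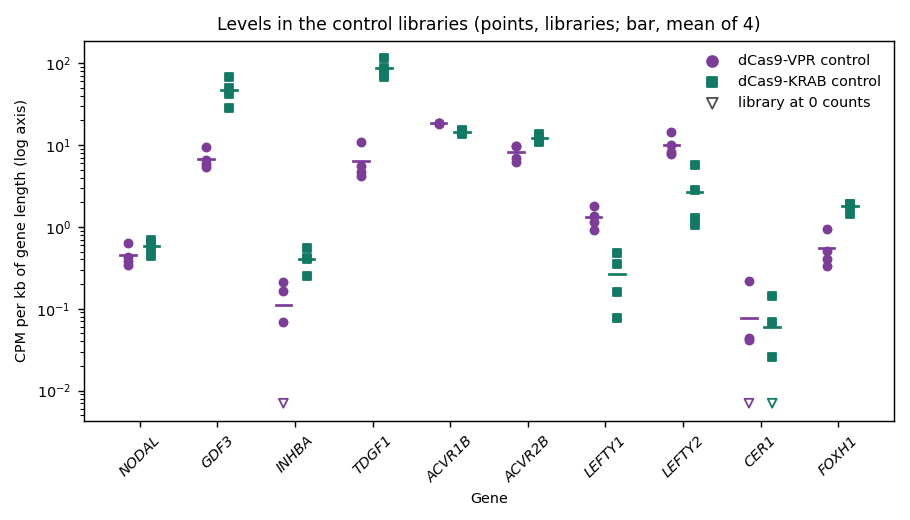
Level of each gene in CPM per kb of gene length (vertical log axis) in the 4 control libraries of each fusion (purple circles, dCas9-VPR; green squares, dCas9-KRAB). Horizontal bars are means of 4 libraries and open triangles at the bottom mark libraries with 0 counts. TDGF1 and GDF3 led in the dCas9-KRAB lines, and ACVR1B led in the dCas9-VPR lines.

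The question of the CRISPRa comparison was which genes change when an activator is recruited to LTR5HS. Both LEFTY genes, the feedback inhibitors of Nodal, fell, and none of the tested genes rose. Of the 10 genes, 8 had enough counts to be tested, 0 were higher and 2 were lower, where 15.7% of all 16271 tested genes were higher and 12.3% were lower. The 8 genes had a median of -0.55 on the log2 scale, against -0.02 over all tested genes. Of the 8 genes, 4 were lower at an unadjusted p under 0.05, as were 18.7% of all tested genes.

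LEFTY2 was at 3.97 and 3.03 CPM in the 2 recruitment libraries of dCas9-VPR. In the control libraries it was at 17.04 and 31.6 CPM with LTR5HS Sa and at 21.8 and 17.9 CPM with nontarget Sp. The recruitment libraries were thus below all 4 control libraries, with no overlap. The share of all tested genes separated in this way was not counted, here or for the genes below. LEFTY2 had a log2 fold change of -2.65 ± 0.31 (SE), a 6.26-fold lower level (adjusted p = 0.000489 by edgeR). Leaving out any 1 library gave values between -2.85 and -2.42.

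LEFTY1 was at 0.772 and 0.798 CPM in the recruitment libraries. It was at 1.51 and 1.89 CPM with LTR5HS Sa and at 2.21 and 2.89 CPM with nontarget Sp. Here too the groups did not overlap, although the recruitment values rest on 14 and 15 counts. The log2 fold change was -1.41 ± 0.35 (SE), a 2.66-fold lower level (adjusted p = 0.0179 by edgeR). Without recruitment replicate 1 or 2 the adjusted p was 0.116 or 0.108, so this call needs both libraries.

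The LEFTY transcripts are near copies of each other. Their canonical transcripts were 85.9% identical over the aligned bases, and 23.7% of the 75-base words of LEFTY1 also occur in LEFTY2. The paper describes paired reads longer than these words, and the share over such reads was not computed. How reads matching both were counted is not given in the sources used here, so the split between the pair is uncertain. LEFTY1 made up between 4.23% and 20.8% of the counts of the pair across the 12 libraries. With the counts of both genes added before the fit, the sum had a log2 fold change of -2.49 ± 0.28 (SE) with CRISPRa (adjusted p = 0.000391 by edgeR).

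The other inhibitor gene, CER1, was at the edge of detection, with 0 to 6 counts in any library, and was not tested with either fusion. RefSeq promoter entries (GRCh38.p14) were matched for 6 of the 10 genes, NODAL, GDF3, INHBA, ACVR1B, ACVR2B and CER1, and not for LEFTY1, LEFTY2, TDGF1 and FOXH1. The 250 bases before each start were searched on both strands for TGTGTATT and TGTGGATT, which are forms of the site that FOXH1 recognises. CER1 was the 1 gene of the 6 with a match (TGTGTATT), and 0 of the 6 held TGTGGATT. Among 35116 RefSeq promoters, 0.67% held TGTGTATT and 0.71% held TGTGGATT, and a match is a description of the letters only. The CER1 sequence, minus strand of chr9:14722734-14722983, is shown 5′ to 3′ because it carries that match beside a gene whose transcript was hardly counted, with the match, which lies on the opposite strand, in capitals.
CER1: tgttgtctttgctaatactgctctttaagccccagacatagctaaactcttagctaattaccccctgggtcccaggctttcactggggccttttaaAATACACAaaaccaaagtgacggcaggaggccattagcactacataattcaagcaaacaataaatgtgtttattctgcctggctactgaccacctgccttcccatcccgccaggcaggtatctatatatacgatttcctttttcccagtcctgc

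The ligand genes did not pass the test with CRISPRa. GDF3 was at 5.79 and 3.67 CPM in the recruitment libraries, at 7.17 and 6.51 CPM with LTR5HS Sa and at 11.4 and 8.10 CPM with nontarget Sp. Both recruitment libraries were below every control library, but the log2 fold change of -0.80 ± 0.29 (SE) had an adjusted p of 0.0737 by edgeR. With the replicate number as a block the adjusted p was 0.0433, and it was 0.0423 with DESeq2, so GDF3 sits at the threshold. The control array mattered too. Against nontarget Sp alone the log2 fold change was -1.03 (adjusted p = 0.0229 by edgeR), and against LTR5HS Sa alone GDF3 did not pass. With the arrays as separate groups the adjusted p was 0.0292 by edgeR.

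NODAL was at 0.827 and 0.425 CPM in the recruitment libraries, against 0.885 and 1.34 CPM with LTR5HS Sa and 0.721 and 0.789 CPM with nontarget Sp. The groups overlapped, and the log2 fold change was -0.57 ± 0.43 (SE, adjusted p = 0.361 by edgeR). These values rest on 8 to 27 counts per library. INHBA, which encodes the beta A subunit of activin and inhibin, had 0 to 9 counts in the dCas9-VPR libraries and was not tested there.

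TDGF1 was at 11.5 and 11.2 CPM in the recruitment libraries. The control libraries were at 12.1 and 9.05 CPM with LTR5HS Sa and at 24.04 and 10.3 CPM with nontarget Sp, where replicate 1 stood above the rest. The groups overlapped, and the log2 fold change was -0.27 ± 0.37 (SE, adjusted p = 0.627 by edgeR). Without nontarget Sp replicate 1 it was 0.12, so the direction depended on that library.

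The receptor genes differed in how steady they were. ACVR1B was between 86.5 and 89.7 CPM in all 6 dCas9-VPR libraries, and its log2 fold change was 0.02 ± 0.09 (SE, adjusted p = 0.916 by edgeR). ACVR2B was at 62.7 and 64.6 CPM in the recruitment libraries, at 111 and 110 CPM with LTR5HS Sa and at 79.9 and 70.3 CPM with nontarget Sp. Recruitment was below control without overlap, but the control arrays themselves stood apart.

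For ACVR2B the log2 fold change was -0.54 ± 0.20 (SE, adjusted p = 0.0876 by edgeR) with the control arrays pooled. Against LTR5HS Sa alone it was -0.80 (adjusted p = 0.000402 by edgeR), and against nontarget Sp alone it was -0.22 (adjusted p = 0.285 by edgeR). With both arrays as control the adjusted p was 0.0443 with DESeq2, 0.0305 in a fit of all 12 libraries, 0.00423 with the arrays as separate groups and 0.0307 without nontarget Sp replicate 2. The call of ACVR2B therefore changed with the fit and the test as well as with the control array. FOXH1 had overlapping groups, at 1.10 and 1.06 CPM with recruitment and between 0.721 and 2.04 CPM in control (log2 fold change -0.14 ± 0.45 SE, adjusted p = 0.847 by edgeR).

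**Figure D3:**
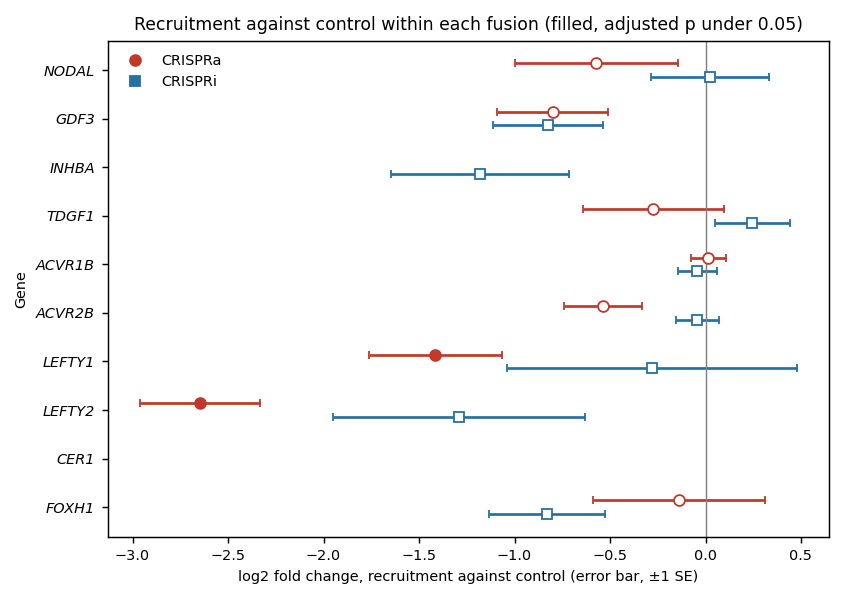
Log2 fold change (horizontal axis, error bars ±1 SE) of recruitment against control for each gene with CRISPRa (red circles) and CRISPRi (blue squares). Filled symbols have an adjusted p under 0.05 by edgeR, and genes without a symbol were not tested. LEFTY1 (-1.41) and LEFTY2 (-2.65) with CRISPRa are the filled symbols.

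Among the other 46 pathway genes listed, 35 were tested with CRISPRa, 7 were higher, 2 were lower and 26 did not pass, with a median log2 fold change of 0.03. The shares over all tested genes were 15.7% higher and 12.3% lower, so these counts are near the background and say nothing particular of the list. Of the 14 membrane and intracellular inhibitors, 13 were tested, 3 rose and 1 fell. SKIL, a corepressor of SMADs, also passed with the replicate block (log2 0.51, adjusted p = 0.0211 by edgeR, against 0.0813 without it).

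BAMBI, a pseudoreceptor without a kinase domain, rose from 29.9 ± 2.72 CPM (SD, n = 4) to 110 ± 11.1 CPM (n = 2), a log2 fold change of 1.89 ± 0.12 (SE, adjusted p = 2.11e-05 by edgeR). PMEPA1, a membrane protein that binds SMAD2 and SMAD3, rose from 10.8 ± 2.04 to 34.9 ± 1.29 CPM (log2 1.71 ± 0.18 SE, adjusted p = 0.000274). SMAD7, the inhibitory SMAD, rose from 34.8 ± 7.83 to 100.3 ± 1.12 CPM (log2 1.54 ± 0.18 SE, adjusted p = 0.000438). All 3 changed in the opposite direction to the LEFTY genes. DRAP1, a corepressor reported to limit FOXH1, fell by 0.40 on the log2 scale (adjusted p = 0.0416 by edgeR).

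Of the 6 SMADs and cofactors, SMAD3 was higher, at 134 ± 1.48 against 93.1 ± 9.11 CPM in control (log2 0.54 ± 0.11 SE, adjusted p = 0.00895 by edgeR). ZFYVE9, a protein that brings SMAD2 and SMAD3 to the receptor, was lower, at 95.2 ± 4.12 against 126 ± 1.53 CPM (log2 -0.39 ± 0.09 SE, adjusted p = 0.0155). The calls of SMAD3, ZFYVE9 and DRAP1 were lost when either recruitment library was left out, and those of ZFYVE9 and DRAP1 also with nontarget Sp alone as control. For DRAP1 that was also so without LTR5HS Sa replicate 1 (adjusted p = 0.103), LTR5HS Sa replicate 2 (0.0708) or nontarget Sp replicate 2 (0.0763). The 4 remaining genes, SMAD2, SMAD4, TRIM33 and RNF111, did not pass.

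Of 12 target genes, 7 were tested and 3 rose. EOMES, a T-box factor of mesoderm and endoderm, was at 3.30 and 5.13 CPM with recruitment and between 0.149 and 0.316 CPM (3 to 6 counts) in control (log2 4.29 ± 0.35 SE, adjusted p = 6.22e-05 by edgeR). GATA6, an endoderm factor, rose from 1.43 ± 0.0899 to 3.47 ± 0.0884 CPM (log2 1.29 ± 0.22 SE, adjusted p = 0.00318). WNT3, a secreted ligand of the primitive streak, had the largest change of the 3 but the poorest agreement, at 2.26 and 11.8 CPM with recruitment and 0.0526 to 0.994 CPM in control. Its log2 fold change was 4.49 ± 0.91 (SE, adjusted p = 0.0075 by edgeR), and without recruitment replicate 2 it was 2.85 with an adjusted p of 0.122. Without recruitment replicate 1 or LTR5HS Sa replicate 2 the WNT3 value was 5.23 or 6.32. Of the ligand and inhibin subunits, the co-receptors and receptors, the processing enzymes and the secreted inhibitors, 9 genes were tested and 0 passed by edgeR. With the replicate block INHBE, an inhibin beta subunit gene, passed (log2 0.55, adjusted p = 0.0203 by edgeR, against 0.0613 without it).

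**Figure D4:**
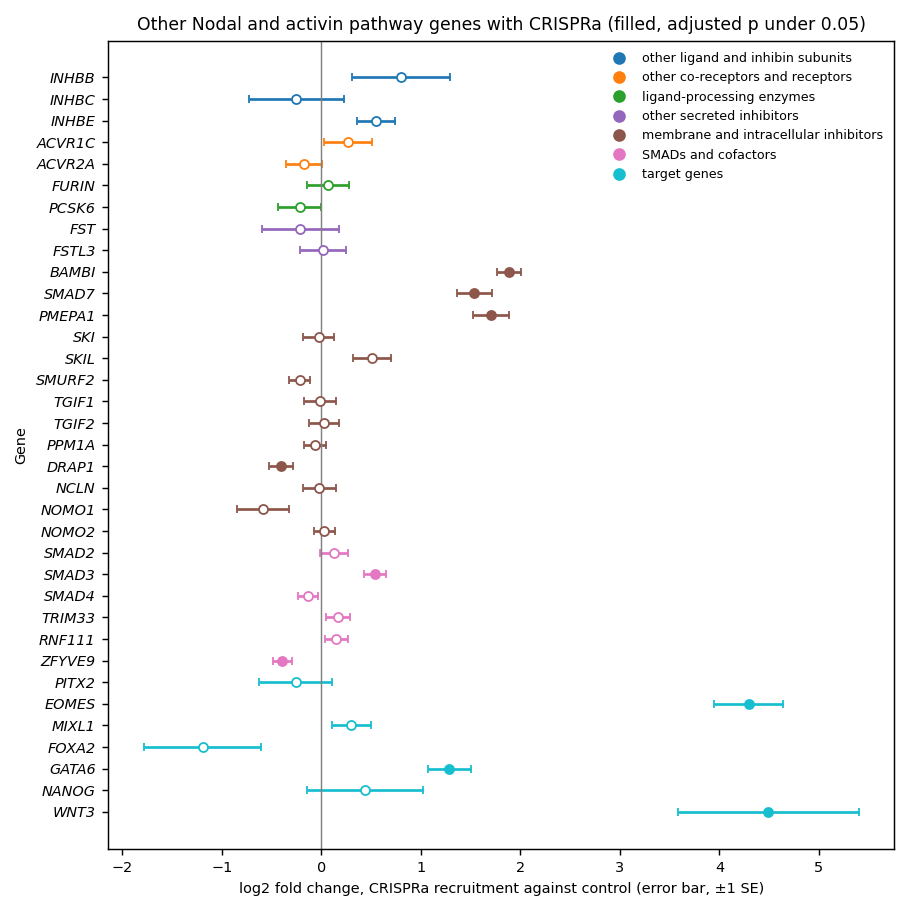
Log2 fold change (horizontal axis, error bars ±1 SE) of the 35 other pathway genes tested with CRISPRa, recruitment against control, coloured by role. Filled symbols have an adjusted p under 0.05 by edgeR: BAMBI, SMAD7, PMEPA1, SMAD3, EOMES, GATA6 and WNT3 lie to the right of 0, and DRAP1 and ZFYVE9 to the left.

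Some markers of other cell types also changed with CRISPRa, and those with CRISPRi are given further below. The summed level of 6 mesoderm and fibroblast markers was 3104 to 3179 CPM in the dCas9-VPR recruitment libraries and 213 to 382 CPM in control. Most of that sum was COL1A1, a fibrillar collagen gene, which rose by 5.41 on the log2 scale (adjusted p = 1.56e-06 by edgeR). In all, 2 of 5 tested markers of that list rose, as did 1 of 3 endoderm and yolk sac markers (GATA6) and 1 of 2 trophoblast markers (GATA3), while 1 of 4 neural markers (TUBB3) fell. Of the 10 embryonal carcinoma markers, 1 rose and 2 fell. The other tested markers did not pass, and over all tested genes 15.7% were higher and 12.3% were lower. The part of these genes or cells in the change of LEFTY1 and LEFTY2 was not tested, and in bulk RNA a smaller number of expressing cells and less RNA per cell cannot be told apart.

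The CRISPRi comparison asked which genes change when a repressor is recruited to the same elements. None of the tested genes passed when the control arrays were pooled. Of the 9 genes tested, 0 were higher and 0 were lower by edgeR, and the same counts were given by DESeq2. Over all 15520 genes tested, 0.831% were higher and 1.94% were lower. GDF3, INHBA and FOXH1 were lower at an unadjusted p under 0.05, as were 7.76% of all tested genes, and the 9 genes had a median of -0.28 on the log2 scale.

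GDF3 was at 35.7 and 29.1 CPM with recruitment, at 51.4 and 34.3 CPM with LTR5HS Sa and at 84.0 and 61.0 CPM with nontarget Sp. Recruitment replicate 1 was above LTR5HS Sa replicate 2, so the groups overlapped. The log2 fold change was -0.82 ± 0.29 (SE, adjusted p = 0.229 by edgeR). Against nontarget Sp alone it was -1.14 (adjusted p = 0.00979 by edgeR), and against LTR5HS Sa alone it was -0.40 (adjusted p = 0.563). Without LTR5HS Sa replicate 2 GDF3 passed (adjusted p = 0.0349 by edgeR).

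LEFTY2 was at 2.70 and 1.96 CPM with recruitment and at 2.82 and 2.31 CPM with nontarget Sp. With LTR5HS Sa it was at 12.4 and 6.13 CPM, well above the rest. The log2 fold change was -1.29 ± 0.66 (SE, adjusted p = 0.439 by edgeR) with the control arrays pooled, -1.99 (adjusted p = 0.00304) against LTR5HS Sa alone and -0.11 (adjusted p = 0.876) against nontarget Sp alone. LEFTY1 rested on 3 to 17 counts per library, with 0.393 and 0.202 CPM in recruitment against 0.125 to 0.776 CPM in control (log2 fold change -0.28 ± 0.76 SE, adjusted p = 0.908 by edgeR).

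FOXH1 was at 1.46 and 2.90 CPM with recruitment, against 4.05 and 4.19 CPM with LTR5HS Sa and 3.11 and 4.16 CPM with nontarget Sp. Both recruitment libraries were below all 4 control libraries, yet the log2 fold change of -0.83 ± 0.30 (SE) had an adjusted p of 0.252 by edgeR. INHBA was at 0.281 and 0.540 CPM with recruitment and between 0.543 and 1.20 CPM in control, from 5 to 78 counts per library. Its log2 fold change was -1.18 ± 0.47 (SE, adjusted p = 0.294 by edgeR).

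TDGF1 was at 250 and 195 CPM with recruitment, at 162 and 149 CPM with LTR5HS Sa and at 253 and 192 CPM with nontarget Sp (log2 fold change 0.25 ± 0.20 SE, adjusted p = 0.636 by edgeR). The recruitment libraries thus lay among those of nontarget Sp and above those of LTR5HS Sa. NODAL was at 1.24 and 1.21 CPM against 0.913 to 1.43 CPM in control, a log2 fold change of 0.02 ± 0.31 (SE). ACVR1B and ACVR2B both had a log2 fold change of -0.04, with SE of 0.10 and 0.11. Of the other 46 pathway genes, 31 were tested with CRISPRi and 0 were higher and 0 lower by edgeR and by DESeq2, with 1 higher and 2 lower at an unadjusted p under 0.05 (over all tested genes 5.82% and 7.76%). Among the cell-type markers, 2 of 2 tested for trophoblast rose with CRISPRi, where 0.831% of all tested genes were higher. They were GATA3 (log2 1.47, adjusted p = 0.0259 by edgeR) and TFAP2A (log2 1.07, adjusted p = 0.00406). GATA3 had risen by 1.48 with CRISPRa. The tested markers of the other lists did not pass with CRISPRi.

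The difference between the fusions was tested as an interaction in a fit of all 12 libraries. Of the 9 genes tested, 0 were higher (against 11.5% of 16673 genes) and 0 were lower (against 9.53%), with 0 at an unadjusted p under 0.05 and 0 in either direction with DESeq2. For LEFTY2 the CRISPRa change was lower than the CRISPRi change by a log2 difference of -1.37 ± 0.82 (SE, adjusted p = 0.273 by edgeR), and for LEFTY1 the difference was -1.13 ± 0.84 (adjusted p = 0.391). A fall of the LEFTY genes in CRISPRa that differs from CRISPRi was therefore not shown. Without dCas9-KRAB LTR5HS Sa replicate 1, the library with the highest LEFTY2 of that fusion, the LEFTY2 difference was -2.06 (adjusted p = 0.0278 by edgeR). Without dCas9-VPR nontarget Sp replicate 2, that of ACVR2B was -0.61 (adjusted p = 0.0496).

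To show how far these genes differ between lines without recruitment, the LTR5HS Sa line was compared with the nontarget Sp line within each fusion. With dCas9-KRAB, LEFTY2 was higher in LTR5HS Sa by a log2 fold change of 1.89 ± 0.33 (SE), a 3.72-fold higher level (adjusted p = 0.0408 by edgeR). It was the 1 gene of 9 that passed, where 0.258% of tested genes were higher and 0.309% were lower. The call was lost without LTR5HS Sa replicate 1 or nontarget Sp replicate 2. LEFTY1 had a log2 fold change of 1.62 ± 0.56 (SE, adjusted p = 0.372). The replicate block called 158 of 15520 genes lower, against 48 without it. Among them, GDF3 (log2 -0.75, adjusted p = 0.0127 by edgeR) and TDGF1 (log2 -0.48, adjusted p = 0.0428) were lower in LTR5HS Sa.

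With dCas9-VPR, ACVR2B was higher in LTR5HS Sa than in nontarget Sp by 0.58 ± 0.11 on the log2 scale (SE, adjusted p = 0.0253 by edgeR), the 1 gene of 8 that passed. It passed no longer without either LTR5HS Sa library or nontarget Sp replicate 2. Among all tested genes 1.90% were higher and 2.61% were lower. LEFTY2 had a log2 fold change of 0.32 ± 0.27 (SE, adjusted p = 0.576) and LEFTY1 one of -0.57 ± 0.29 (adjusted p = 0.328). With the replicate block, which called 1637 of 16271 genes lower (425 without it), TDGF1 was lower in LTR5HS Sa (log2 -0.61, adjusted p = 0.0459 by edgeR). Both control arrays were thus unequal for some of these genes, in lines to which the fusion is not brought by design.

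**Figure D5:**
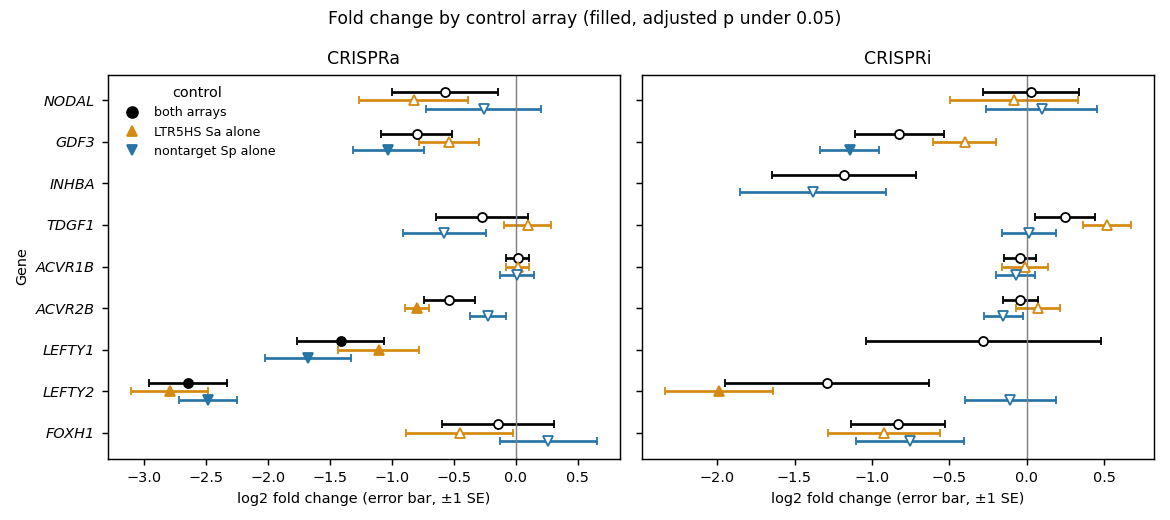
Log2 fold change (horizontal axis, error bars ±1 SE) of recruitment against both control arrays (black circles), against LTR5HS Sa alone (orange upward triangles) and against nontarget Sp alone (blue downward triangles), for CRISPRa on the left and CRISPRi on the right. Filled symbols have an adjusted p under 0.05 by edgeR, and a missing symbol was not tested. LEFTY1 and LEFTY2 are filled for all 3 controls with CRISPRa, whereas LEFTY2 with CRISPRi moves from -1.99 to -0.11 with the control used. The 3 settings share the recruitment libraries and are not independent.

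For TDGF1 and GDF3, the widest differences among the 12 libraries lay between the fusions. The control lines of dCas9-VPR were compared with those of dCas9-KRAB after these values had been seen. Of the 9 genes tested, 3 were higher and 5 were lower in the dCas9-VPR lines, where 27.1% of all tested genes were higher and 28.3% were lower. The fusion and the progenitor line that carries it cannot be told apart.

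TDGF1 lay between 9.05 and 24.04 CPM in the dCas9-VPR control libraries and between 149 and 253 CPM in those of dCas9-KRAB. The ranges were far apart, and the level was 13.5-fold lower with dCas9-VPR (log2 fold change -3.76 ± 0.28 SE, adjusted p = 5.03e-07 by edgeR). TDGF1P3 on the X chromosome is a processed copy of TDGF1 with 98.4% identity, and it took between 8.97% and 16.1% of the counts of the pair in any library. Of the 75-base words of TDGF1, 23.4% also occur in TDGF1P3. How reads that match both copies were counted is not known, so the split between them is uncertain. TDGF1 also overlaps LRRC2 on the opposite strand, and the library protocol names no step that marks strand.

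GDF3 was between 6.51 and 11.4 CPM with dCas9-VPR and between 34.3 and 84.0 CPM with dCas9-KRAB, a 6.91-fold lower level (log2 fold change -2.79 ± 0.26 SE, adjusted p = 2.81e-06 by edgeR). FOXH1 was lower by a log2 fold change of -1.67 ± 0.31 (SE, adjusted p = 0.000534), INHBA by -1.88 ± 0.54 (adjusted p = 0.00964) and ACVR2B by -0.56 ± 0.14 (adjusted p = 0.00382). The 4 control libraries of each fusion did not overlap for any of these genes. They are listed because they passed, and the share of all genes without overlap was not counted. Part of FOXH1, INHBA and ACVR2B likewise overlaps a counted gene on the opposite strand (KIFC2, INHBA-AS1 and ACVR2B-AS1).

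LEFTY1 and LEFTY2 went the other way and were higher with dCas9-VPR. LEFTY1 was between 1.51 and 2.89 CPM in the dCas9-VPR control libraries and between 0.125 and 0.776 CPM in those of dCas9-KRAB (5.63-fold higher, log2 fold change 2.49 ± 0.42 SE, adjusted p = 0.000254 by edgeR). LEFTY2 was between 17.04 and 31.6 CPM and between 2.31 and 12.4 CPM, a 3.89-fold higher level (log2 fold change 1.96 ± 0.44 SE, adjusted p = 0.002). Without dCas9-KRAB LTR5HS Sa replicate 1 the LEFTY2 log2 fold change was 2.65. ACVR1B was higher by a log2 fold change of 0.35 ± 0.07 (SE, adjusted p = 0.000806). NODAL did not pass (log2 fold change -0.36 ± 0.28 SE, adjusted p = 0.281).

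The LEFTY genes and the co-receptor gene thus differed between the control lines in opposite directions. All 10 embryonal carcinoma markers were lower in the dCas9-VPR control lines, among them POU5F1 by a log2 fold change of -2.29 (adjusted p = 0.000101 by edgeR) and L1TD1 by -3.82 (adjusted p = 2.19e-07). Of the other cell-type markers, 3 of 3 tested for endoderm and yolk sac, 3 of 6 for mesoderm and fibroblast and 1 of 2 for trophoblast were higher. Of 4 neural markers 2 were lower (TUBB3 and MAP2) and 0 were higher. The part of a changed cell state in the values of TDGF1 and GDF3 was not tested. Of the other 46 pathway genes, 35 were tested, 11 were higher and 12 were lower in the dCas9-VPR control lines. Over all tested genes 27.1% were higher and 28.3% were lower in this comparison, so the pathway counts are near the background.

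After CRISPRa recruitment, LEFTY2 in the dCas9-VPR line was at 3.97 and 3.03 CPM, beside 2.82 and 2.31 CPM in the dCas9-KRAB nontarget Sp line and 12.4 and 6.13 CPM in the dCas9-KRAB LTR5HS Sa line. The recruitment values of TDGF1 and GDF3 with dCas9-VPR were below every dCas9-KRAB library. These levels are given side by side and were not tested against each other.

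As a description of pattern, the genes most like NODAL, LEFTY1 and TDGF1 over the 12 libraries were sought by Pearson's r of log2 CPM among 16664 genes. The libraries share lines and fusions, so r mainly orders genes by line. For TDGF1 they were ZNF483 (r = 0.997), SPOCK3 (r = 0.997) and its own copy TDGF1P3 (r = 0.994). For LEFTY1 they were CDH23 (r = 0.974), NHLRC4 (r = 0.962) and PTPRH (r = 0.962). NODAL had lower values, led by SNORD38A (r = 0.925), CAPN10-AS1 (r = 0.920) and HTR6 (r = 0.913).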

How the data were processed

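RNA was sequenced from 6 NCCIT lines in 2 libraries each. The authors deposited raw read counts per gene, without normalization, from paired reads aligned to hg38. Per the submitters' processing notes the tools were CASAVA 1.8, cutadapt 1.8.1, HISAT2 2.1.0 and featureCounts 1.4.6-p2, whereas the gene annotation and the strand and multimapping settings are not given in the sources used here. The deposited gene length (bp) was used only for levels per kb. Of 26641 genes, 3395 had 0 counts in every library and 28 carried date-like names, which were not named.

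Tests used edgeR 4.0.16 under R 4.3.3 (filterByExpr, TMM, quasi-likelihood test, Benjamini-Hochberg adjustment, threshold 0.05), recruitment against pooled control within each fusion, with SE taken from the log2 fold change and its F statistic. On simulated data for the CRISPRa comparison (16271 genes, 200 of them changed 4-fold), 200 were recovered and 13 others were called. For the CRISPRi comparison (15520 genes) 200 were recovered and 9 others were called. The changed genes were drawn from well-counted genes, with the same spread for every gene and no effect of line or replicate. Recovery of genes with few counts, such as NODAL, LEFTY1 and INHBA, was therefore not tested. Same-numbered libraries deviated together in every pair of lines of a fusion (r = 0.180 to 0.375 over 16673 genes), so the replicate number, taken from the labels, was treated as pairing and used as a block in an alternative fit. Replicates of a line differed by more than counting noise.

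Alternatives were DESeq2 1.42.0 (size factors, Wald test), other filters, the block, each control array alone or as separate groups, all 12 libraries in one fit, summed LEFTY counts, a threshold of 0.01 and leaving out each library. The members and gene lists were chosen with earlier results of these data known. Named were all members, the other pathway genes past the threshold with CRISPRa or CRISPRi (at most 4 per list), the 3 genes most like NODAL, LEFTY1 and TDGF1, and PCAT14. Cell-type markers, TDGF1P3, overlapping genes and a few pathway genes that did not pass or passed only with the block were named in addition, after their values were seen. Positions and guide matches use GRCh38 and GENCODE 44, and promoter sequences are from RefSeq (GRCh38.p14). Count floors cover counting error only. Repeat transcripts and ChIP-seq data were not analysed here.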

Additional observations from a re-analysis of the deposited data

Results flagged for a closer look

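Among the 4 dCas9-KRAB control libraries, FOXH1 had 1 library apart from the others: nontarget Sp replicate 1 was at 3.11 CPM and the other 3 lay between 4.05 and 4.19 CPM. The gap to its nearest neighbour was 0.886 of the whole range on the log2 scale, which is above the limit of Dixon's test for 4 values. Such a test was made for 20 groups of control libraries, and chance alone marks about 1 in 20. Without that library the CRISPRi log2 fold change of FOXH1 was still negative.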

How the results depend on the processing

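LEFTY2 with CRISPRa passed under every alternative run in which it was tested, and in the comparison of control lines the counts of 3 higher and 5 lower genes were kept within 1.5 times. For CRISPRa, the count of lower genes went from 2 to 4 with DESeq2's Wald test and with separate control arrays (GDF3 and ACVR2B added), and to 1 with the LEFTY counts summed, which merges the pair, and at a threshold of 0.01. It was 1 to 3 with 1 library left out. Among the other pathway genes, 11 were higher with LTR5HS Sa alone, 1 was lower with nontarget Sp alone and 0 were lower at 0.01. Calls over all genes moved as well. With LTR5HS Sa alone 3019 of 16047 were higher, against 2552 of 16271 in the main fit. Lower were 2215 of 16271 with DESeq2's Wald test and 2686 with separate control arrays, against 1996.

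For CRISPRi, 1 member was lower with either control array alone (LEFTY2 or GDF3) and 0 to 1 with 1 library left out. With nontarget Sp alone 1 other pathway gene was higher and 1 lower, and with separate control arrays 1 was lower. Over all genes 310 of 15078 were lower with LTR5HS Sa alone and 411 of 15525 with nontarget Sp alone, against 301 of 15520. In the interaction 0 to 1 members were lower with 1 library left out (LEFTY2, or ACVR2B without dCas9-VPR nontarget Sp replicate 2).

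Between control arrays with dCas9-VPR, 0 members were higher at 0.01, and leaving out 1 library gave 0 to 1 higher and 0 to 1 lower. With dCas9-KRAB, 0 were higher with at least 10 counts in every library and at 0.01, and 0 to 1 with 1 library left out. Lower there were 1 with DESeq2's Wald test (GDF3) and 2 without a filter (GDF3 and TDGF1). Over all genes 94 of 15520 and 222 of 22299 were lower in these settings, against 48 of 15520. With 1 library of an arm, its spread was assumed to equal that of the others.

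The replicate block gave 1 lower gene with dCas9-VPR (TDGF1) and 2 with dCas9-KRAB between control arrays. Over all genes, the block gave 1637 of 16271 lower with dCas9-VPR and 158 of 15520 with dCas9-KRAB. It changed the CRISPRa call of GDF3, INHBE and SKIL and the calls of some other pathway genes in the remaining comparisons, and no other member's call.

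Signs reversed for values that had not passed. With CRISPRa, TDGF1 was 0.10 with LTR5HS Sa alone and between -0.43 and 0.12 with 1 library left out, and FOXH1 was 0.26 with nontarget Sp alone and between -0.32 and 0.27 with 1 library left out. With CRISPRi, NODAL was -0.085 with LTR5HS Sa alone and between -0.097 and 0.099 with 1 library left out, ACVR2B was 0.072 and between -0.085 and 0.014, and LEFTY1 lay between -0.87 and 0.066 with 1 library left out. The GDF3 interaction was -0.0024 with the block and between -0.34 and 0.32 with 1 library left out, below 0 in 6 of those settings. Elsewhere the cause of a change was not tested. Of the single-gene values, 636 kept their direction and side of the threshold, 17 no longer passed and 14 newly passed.

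With 2 recruitment libraries per fusion, a gene such as NODAL, LEFTY1 or INHBA with few counts had wide errors, and calls that need both libraries are weak.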
